A study of Homo sapiens with 9 samples.

Results

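Heat shock proteins, J proteins and the subunits of the cytosolic chaperonin were followed in A375 cells given metformin. Members were taken by name: protein-coding rows for the HSP70 and HSP110 (HSPA, HSPH1), HSP90 (HSP90A), small heat shock protein (HSPB), HSP60 and HSP10 (HSPD1, HSPE1), J protein (DNAJA, DNAJB, DNAJC) and chaperonin (TCP1 and CCT) families, with the heat shock transcription factor HSF1. HSPA5, DNAJB9 and DNAJC3 of the endoplasmic reticulum and hyphenated readthrough names were left out. This gave 76 of the 37118 listed genes, under 75 distinct names because HSPA14 has 2 gene IDs. By place in the cell, 32 were cytosolic, 8 mitochondrial, 9 chaperonin, 10 at the endoplasmic reticulum (ER), 16 J proteins with specialised tasks or no settled place, and 1 was HSF1.

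A375 is an established human melanoma line, carried here with a genotype labelled wild type in every group. Cells received metformin, a biguanide that lowers blood glucose and acts on mitochondrial respiration, at 0, 20 or 40 mM, with 3 libraries per dose and 9 in all. The labels do not give the time of exposure. The series title places the study in ferroptosis of skin melanoma, and its design text in the action of metformin on these cells. Polyadenylated RNA was sequenced, and levels are given as FPKM, fragments scaled to gene length and library size, so that genes of different length can be compared.

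Chaperones keep other proteins folded. In the cytosol, J proteins bring unfolded clients to HSP70, nucleotide exchange factors such as the HSP110 proteins release them, HSP90 matures kinases and receptors, and the ring-shaped TRiC/CCT chaperonin folds actin and tubulin. In mitochondria, HSPA9 (mortalin) pulls imported proteins inward and the HSPD1-HSPE1 chamber folds them. HSF1 is held inactive by chaperones and, when unfolded proteins accumulate, binds heat shock elements, inverted repeats of the unit GAA, in the promoters of its targets. Melanoma cells of this kind carry an activated BRAF kinase, a known client of HSP90.

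Libraries held 65738242 to 75629413 counts. Replicate 3 of 40 mM held the fewest, lay at -22.6 on the second principal component against 17.7 and 15.2 for replicates 1 and 2, and had 4.358% of its counts in mitochondrial genome genes against 3.008% and 3.265%. Of the line's lineage markers, SOX10 averaged 104, 97.7 and 85.5 FPKM at 0, 20 and 40 mM, S100B 10.2, 8.79 and 5.98 FPKM, and MITF 3.06, 2.68 and 3.10 FPKM, while the pigment genes PMEL, MLANA, TYR, DCT and TYRP1 reached at most 0.573 FPKM in any library. Of the immune markers, PTPRC and CD3E reached at most 0.015 FPKM, while CD68, a lysosomal protein that other cells also make, averaged 3.90, 11.9 and 17.4 FPKM at 0, 20 and 40 mM, and its part in the results was not tested. The markers KRT14, KRT10 and LUM of skin and connective tissue averaged 8.64, 22.7 and 6.14 FPKM at 40 mM, against 7.33, 17.9 and 3.24 FPKM at 0 mM, likewise untested. The other keratinocyte, epithelial, endothelial and fibroblast markers (KRT5, EPCAM, CDH1, PECAM1, VWF, PDGFRA and DCN) reached at most 0.41 FPKM in any library. The labels do not say that replicates were separate cultures, so p-values measure the spread between libraries, which may be technical.

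Promoters were searched for the heat shock element, written as 3 alternating units (GAANNTTCNNGAA or its reverse complement TTCNNGAANNTTC, so both strands are covered). The windows run from 250 bases before to 50 after a start site in RefSeq (GRCh38.p14), and 67 member names had at least 1 window, 88 windows in all. The element stood in 7 member windows (7.95%), against 172 of all 35116 RefSeq windows (0.49%). The 7 belong to HSPA8, HSP90AA1, HSP90AB1, DNAJA1, DNAJB6, HSPA6 and HSPD1, and 6 of them are among the 39 cytosolic windows (15.4%). None was found in the 10 chaperonin, 10 ER and 18 specialised J windows. A form of 2 units (GAANNTTC or TTCNNGAA), which every 3-unit match contains, stood in 27 member windows (30.7%) against 13.5% of all windows, including 19 cytosolic (48.7%), 3 of 11 mitochondrial (27.3%), 4 chaperonin, 0 ER and 1 specialised J windows. A match is a run of letters and was not tested as a binding site.

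The windows of the 4 most abundant cytosolic bearers are shown, since theirs are the 4 highest levels of the class, with the 3-unit matches in capitals. Distances count from the start site of the window shown. HSPA8 has matches beginning 230 and 55 bases before the start, HSP90AB1 165 and 112 bases before, HSP90AA1 88 bases before, and DNAJA1 at base 4 after it. The other RefSeq windows of HSP90AB1 and HSP90AA1, for starts elsewhere, hold no match of 2 or 3 units. HSPA6, whose product is made almost only under stress, is shown as a bearer with hardly any transcript, its match beginning 74 bases before the start. HSPA9, a member that rose, is shown for contrast, with a 2-unit match in capitals.
HSPA8 (chr11:123062087-123062386, minus strand): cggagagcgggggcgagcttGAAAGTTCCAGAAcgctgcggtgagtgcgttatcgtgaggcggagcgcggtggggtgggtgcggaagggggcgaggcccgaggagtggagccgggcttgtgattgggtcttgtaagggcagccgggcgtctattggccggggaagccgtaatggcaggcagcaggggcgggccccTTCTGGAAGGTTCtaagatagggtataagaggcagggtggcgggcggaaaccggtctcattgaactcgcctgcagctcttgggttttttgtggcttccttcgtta
HSP90AB1 (chr6:44247693-44247992, plus strand): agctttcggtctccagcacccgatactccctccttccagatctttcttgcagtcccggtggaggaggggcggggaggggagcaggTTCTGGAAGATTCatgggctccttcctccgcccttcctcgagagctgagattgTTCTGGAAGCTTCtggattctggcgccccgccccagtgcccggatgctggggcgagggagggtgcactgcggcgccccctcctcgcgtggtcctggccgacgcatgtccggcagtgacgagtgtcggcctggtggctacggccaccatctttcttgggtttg
HSP90AA1 (chr14:102086995-102087294, minus strand): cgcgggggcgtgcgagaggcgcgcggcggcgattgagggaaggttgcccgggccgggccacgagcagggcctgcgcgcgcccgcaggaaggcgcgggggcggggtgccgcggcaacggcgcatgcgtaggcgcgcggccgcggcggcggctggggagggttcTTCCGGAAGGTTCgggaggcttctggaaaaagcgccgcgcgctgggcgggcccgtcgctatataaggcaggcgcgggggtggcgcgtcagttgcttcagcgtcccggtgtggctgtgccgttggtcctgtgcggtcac
DNAJA1 (chr9:33025023-33025322, plus strand): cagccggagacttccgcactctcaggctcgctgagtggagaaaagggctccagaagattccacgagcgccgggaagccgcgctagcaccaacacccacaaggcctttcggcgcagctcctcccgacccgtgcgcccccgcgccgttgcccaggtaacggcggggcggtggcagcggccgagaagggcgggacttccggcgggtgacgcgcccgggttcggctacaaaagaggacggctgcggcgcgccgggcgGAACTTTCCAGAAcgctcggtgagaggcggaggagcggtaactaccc
HSPA6 (chr1:161524290-161524589, plus strand): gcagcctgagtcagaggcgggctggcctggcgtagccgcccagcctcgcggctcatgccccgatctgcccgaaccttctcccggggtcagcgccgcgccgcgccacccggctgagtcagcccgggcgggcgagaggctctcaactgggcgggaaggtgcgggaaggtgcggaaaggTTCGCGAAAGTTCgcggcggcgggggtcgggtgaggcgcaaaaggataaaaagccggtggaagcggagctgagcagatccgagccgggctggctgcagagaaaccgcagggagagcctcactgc
HSPA9 (chr5:138575352-138575651, minus strand): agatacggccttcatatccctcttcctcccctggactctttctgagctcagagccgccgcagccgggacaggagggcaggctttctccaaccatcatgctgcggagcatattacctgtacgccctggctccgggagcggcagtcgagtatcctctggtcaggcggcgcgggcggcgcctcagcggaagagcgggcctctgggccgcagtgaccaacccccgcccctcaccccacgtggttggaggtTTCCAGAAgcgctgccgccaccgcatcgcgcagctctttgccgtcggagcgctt

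Of the 76 members, 60 reached a mean of 1 FPKM over the libraries and were tested, with mean counts of 425 to 226461 per library. A member was called where edgeR's quasi-likelihood test gave an adjusted p (Benjamini-Hochberg over 12394 genes) under 0.05, and "rose" and "fell" are used of calls. At 20 against 0 mM, 8 members rose, where 16.3% of all tested genes did, and 23 fell, where 15.2% of all tested genes did. At 40 against 0 mM, 13 rose (28.8% of all tested genes) and 30 fell (27.4% of all tested genes). At 40 against 20 mM, 10 rose (14.3% of all tested genes) and 12 fell (15.1% of all tested genes). As shares of the 60 members, the falls were 38.3%, 50% and 20%, and the rises 13.3%, 21.7% and 16.7%. Scaling by total counts gave 20 member rises instead of 13 at 40 against 0 mM, where rises made up 59.8% of all calls against 51.3% with TMM. It also moved the split at 40 against 20 mM: rises made up 61.5% of all calls there against 48.7% with TMM, and 7 members fell instead of 12. Both doses are set against the same 0 mM libraries, so these 2 comparisons are not independent. The median log2 fold change of the tested members was -0.14, -0.17 and -0.04, beside medians within 0.001 of 0 over all tested genes. With 1 library left out in turn, 19 of 31, 36 of 43 and 9 of 22 calls held in all 9 fits.

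**Figure D1:**
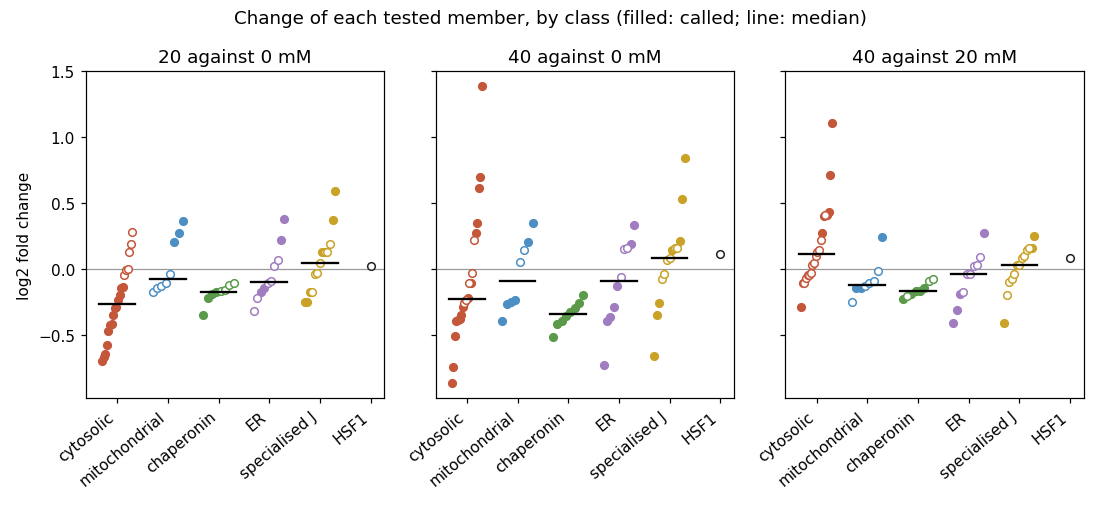
Log2 fold change of each of the 60 tested members (1 point each) by class, in the 3 comparisons between metformin doses. Filled points passed an adjusted p of 0.05 (edgeR), open points did not, and black lines are class medians. At 20 against 0 mM no cytosolic or chaperonin point is a filled rise, and at 40 against 0 mM all 8 chaperonin points are filled falls while the cytosolic points run from -0.87 to 1.39.

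The cytosolic machinery fell at 20 mM in its most abundant parts. Of 20 tested cytosolic members, 0 rose and 14 fell at 20 against 0 mM (median log2 fold change -0.27), and 5 rose and 10 fell at 40 against 0 mM (median -0.23). Between the doses, 6 rose and 1 fell at 40 against 20 mM (median 0.12). The fall at 20 mM counted 9 members without replicate 2 of 20 mM. Of all tested genes, 16.3% rose and 15.2% fell at 20 against 0 mM. The shares were 28.8% and 27.4% at 40 against 0 mM, and 14.3% and 15.1% at 40 against 20 mM. As a share of the 20, the rises at 40 against 0 mM were 25%, near that of all genes. The member counts include both gene IDs of HSPA14, HSPB11 of intraflagellar transport, and HSPA1A with HSPA1B, whose reads may be divided. The summed level of the class was 3170, 3103 and 3025 FPKM at 0 mM, 2334, 2165 and 2071 FPKM at 20 mM, and 2195, 2155 and 2099 FPKM at 40 mM. Both metformin groups lay below every 0 mM library and overlapped each other. In bulk RNA, fewer cells that hold a transcript and less of it per cell cannot be told apart.

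HSP90AB1, the constitutive HSP90, was the most abundant member, with 971, 965 and 962 FPKM at 0 mM. It had 668, 650.0 and 631 FPKM at 20 mM and 552, 548 and 526 FPKM at 40 mM. No library of a dose overlapped another dose, and each step was a fall. The log2 fold change was -0.58 ± 0.03 at 20 against 0 mM (edgeR adjusted p = 1e-06), -0.87 ± 0.03 at 40 against 0 mM (2.7e-08) and -0.29 ± 0.03 at 40 against 20 mM (0.00023), each ± its SE, as for all changes given here (n = 3 libraries per dose). It was the only cytosolic member called lower at 40 against 20 mM. Its inducible paralogue HSP90AA1 had 639, 623 and 629 FPKM at 0 mM, 520, 490.2 and 476 FPKM at 20 mM, and 503, 496 and 485 FPKM at 40 mM. HSP90AA1 fell by 0.35 ± 0.04 at 20 mM and by 0.38 ± 0.04 at 40 mM on the log2 scale (adjusted p = 8e-05 and 1e-05), and its 20 and 40 mM libraries overlapped (-0.03 ± 0.04, adjusted p = 0.54). The HSP90AB1 to HSP90AA1 ratio of FPKM was therefore lower with dose: 1.52, 1.55 and 1.53 at 0 mM, 1.28, 1.33 and 1.33 at 20 mM, with 1.10, 1.11 and 1.08 at 40 mM. No groups of this ratio overlap, and the exact two-sided permutation p is 0.10 in each of the 3 comparisons, the smallest that 3 against 3 libraries allow. Near-identical pseudogenes of both are listed at low levels, HSP90AA2P at 12.4 FPKM and HSP90AB3P at 4.07 FPKM on average at 0 mM, so some reads may be divided.

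HSPA8, the constitutive HSC70 that also strips clathrin coats, had 791, 777 and 718 FPKM at 0 mM. It had 526, 461 and 426 FPKM at 20 mM and 478, 477 and 439 FPKM at 40 mM. Every metformin library was below every 0 mM library, and the 40 mM values lay inside the 20 mM range. The log2 fold change was -0.70 ± 0.07 at 20 against 0 mM (adjusted p = 5.8e-05), -0.75 ± 0.07 at 40 against 0 mM (8.8e-06) and -0.05 ± 0.07 at 40 against 20 mM (0.63). HSPA8, HSP90AA1 and HSP90AB1 together held 0.805%, 0.745% and 0.713% of all library counts at 20 mM, and 0.731%, 0.724% and 0.695% at 40 mM, against 1.12%, 1.08% and 1.06% at 0 mM. Their share of the members' summed FPKM averaged 41.4% at 20 mM and 39.9% at 40 mM, against 47.5% at 0 mM.

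The stress-inducible HSP70 genes were lowest at 20 mM. HSPA1A had 94.4, 83.5 and 76.6 FPKM at 0 mM, 67.1, 49.6 and 43.4 FPKM at 20 mM, and 77.8, 67.5 and 72.6 FPKM at 40 mM. The 20 mM libraries lay below those of both other doses, and the 40 mM libraries overlapped those of 0 mM. HSPA1A fell at 20 against 0 mM (-0.67 ± 0.14, adjusted p = 0.0042), was not called at 40 against 0 mM (-0.26 ± 0.14, 0.13) and rose at 40 against 20 mM (0.41 ± 0.14, 0.044). That rise was lost in 7 of the 9 fits without 1 library, with adjusted p up to 0.15 and log2 fold changes of 0.28 to 0.61, while the fall at 20 mM held in all 9. HSPA1B, next to it on chromosome 6, differs in few bases, so reads may be divided between them. HSPA1B showed -0.65 ± 0.14 at 20 against 0 mM (adjusted p = 0.0066) and 0.41 ± 0.14 at 40 against 20 mM (0.054). Their summed level was 128, 94.3 and 81.8 FPKM at 20 mM and 147, 129 and 137 FPKM at 40 mM, against 179, 158 and 143 FPKM at 0 mM. The ratio of HSPA8 to this sum was 3.25, 3.69 and 3.21 at 40 mM, below every library at 20 mM (4.11, 4.89 and 5.20) and at 0 mM (4.42, 4.94 and 5.02), with an exact permutation p of 0.10 in both cases.

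DNAJB1, the inducible HSP40 that partners HSPA1A, was also lowest at 20 mM, with 63.0, 60.3 and 56.7 FPKM at 0 mM, 54.2, 47.3 and 45.0 FPKM at 20 mM, and 64.1, 60.8 and 55.6 FPKM at 40 mM. It fell by 0.30 ± 0.07 at 20 mM (adjusted p = 0.012), was not called at 40 against 0 mM (-0.03 ± 0.07, 0.76) and rose at 40 against 20 mM (0.27 ± 0.07, 0.021). The fall was lost without replicate 2 or 3 of 20 mM (adjusted p up to 0.052), and the rise was lost in 4 of the 9 fits without 1 library (up to 0.086). The DNAJB1 gene overlaps TECR on the opposite strand, and nothing at hand says whether counting used the strand. HSPH1, the HSP110 exchange factor of these HSP70s, had 79.5, 78.9 and 79.2 FPKM at 0 mM, 63.9, 58.7 and 54.9 FPKM at 20 mM, and 68.0, 65.3 and 65.9 FPKM at 40 mM. HSPH1 fell at 20 mM (-0.42 ± 0.05, adjusted p = 0.00017) and at 40 mM (-0.29 ± 0.05, 0.00065), and its 40 mM libraries were all above those of 20 mM without a call (0.14 ± 0.05, 0.068).

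**Figure D2:**
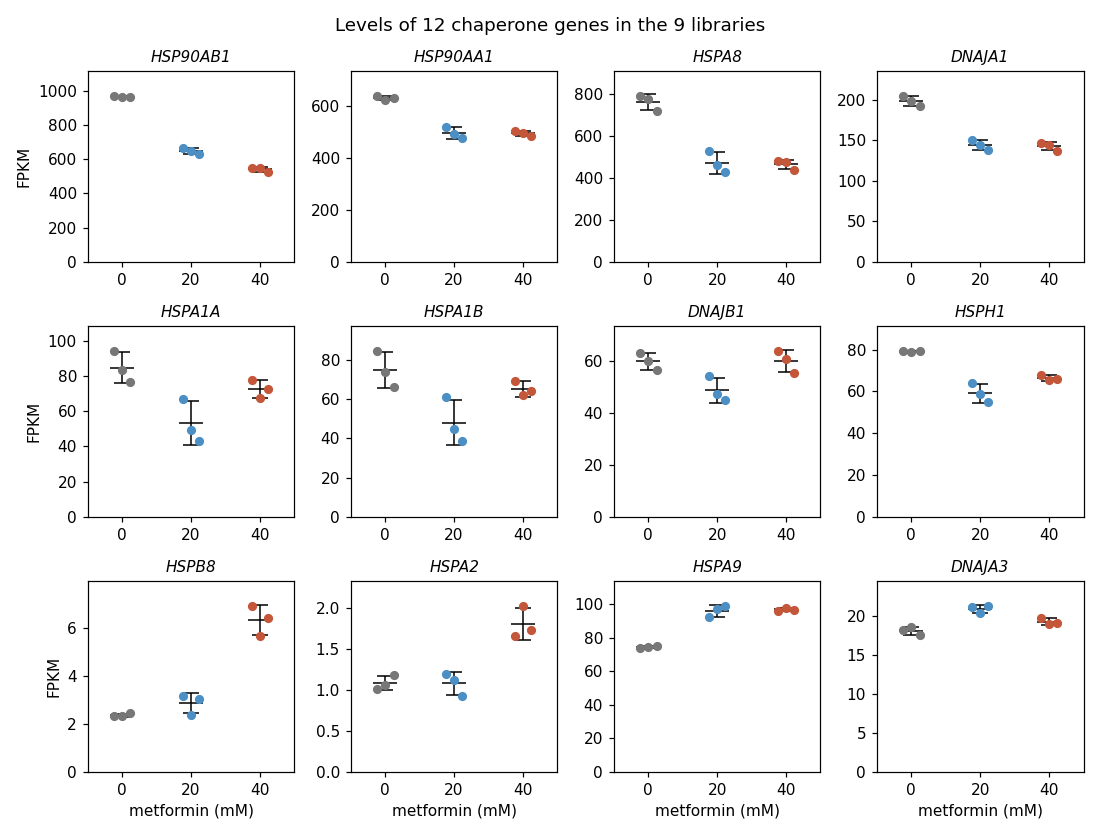
FPKM of 12 members in each library at 0, 20 and 40 mM metformin. Coloured points are libraries, black marks are the mean and SD of 3 libraries, and each panel starts at 0. HSP90AB1 steps down at each dose, HSP90AA1, HSPA8 and DNAJA1 are about as low at 20 as at 40 mM, HSPA1A, HSPA1B and DNAJB1 are lowest at 20 mM, HSPB8 and HSPA2 are high at 40 mM, and HSPA9 is high at both doses.

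The other tested cytosolic HSP110-type exchange factors and class A J proteins among the members went down with HSPA8, HSPA4L at 20 mM alone. DNAJA1, the main class A J protein, had 205, 199 and 193 FPKM at 0 mM, 151, 144 and 138 FPKM at 20 mM, and 147, 144 and 137 FPKM at 40 mM. It fell by 0.47 ± 0.05 at 20 mM and by 0.51 ± 0.05 at 40 mM (adjusted p = 4.8e-05 and 6.4e-06), with overlapping metformin groups. HSPA4, an HSP110-type exchange factor, fell by 0.29 ± 0.04 and 0.40 ± 0.04 (0.00066 and 2e-05), and DNAJA2 by 0.15 ± 0.04 and 0.22 ± 0.04 (0.027 and 0.0014). HSPA4L, its relative, fell at 20 mM (-0.20 ± 0.06, 0.031) and was not called at 40 mM (-0.11 ± 0.06, 0.18). DNAJB6, known for holding back protein aggregation, fell by 0.14 ± 0.04 and 0.11 ± 0.04 (0.029 and 0.048). The 20 mM calls of DNAJA2, HSPA4L and DNAJB6 were lost in 4, 5 and 5 of the 9 fits without 1 library, and the 40 mM call of DNAJB6 in 7.

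HSPA14, a ribosome-bound HSP70 relative, has 2 listed gene IDs that share 8713 bases on the same strand, and they moved oppositely. ENSG00000187522 fell at 20 mM (-0.43 ± 0.10, adjusted p = 0.0086) and at 40 mM (-0.39 ± 0.10, 0.0073), while ENSG00000284024 was not called at 20 mM (0.13 ± 0.07, 0.18) and rose at 40 mM (0.27 ± 0.07, 0.0074). Nothing at hand says how reads were divided between them, so neither value stands for the gene. HSPB11, named as a small heat shock protein but known as the intraflagellar transport protein IFT25, fell by 0.24 ± 0.08 and 0.35 ± 0.08 (0.035 and 0.0029), its 20 mM call being lost in 4 of the 9 fits without 1 library.

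A few cytosolic members rose at 40 mM alone. HSPB8, a small heat shock protein that works with BAG3 in selective autophagy, had 2.34, 2.34 and 2.45 FPKM at 0 mM, 3.19, 2.40 and 3.06 FPKM at 20 mM, and 6.95, 5.69 and 6.43 FPKM at 40 mM. Every 40 mM library was above every other library, while the 20 mM libraries overlapped those of 0 mM. The log2 fold change was 1.39 ± 0.11 at 40 against 0 mM (adjusted p = 3.2e-06), the largest rise of any tested member, and 1.11 ± 0.11 at 40 against 20 mM (0.00014), against 0.28 ± 0.11 at 20 against 0 mM (0.089). The 20 mM value reached a call without replicate 2 of 20 mM (0.39, adjusted p = 0.02).

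HSPA2, an HSP70 best known from the testis, had 1.66, 2.03 and 1.73 FPKM at 40 mM against 1.01, 1.06 and 1.19 FPKM at 0 mM, and 1.20, 1.12 and 0.928 FPKM at 20 mM. HSPA2 rose by 0.70 ± 0.13 against 0 mM (adjusted p = 0.00089) and by 0.71 ± 0.13 against 20 mM (0.0027). DNAJB4 had 7.93, 7.08 and 6.82 FPKM at 40 mM against 4.78, 4.96 and 4.17 FPKM at 0 mM, and DNAJB2, a ubiquitin-binding J protein, had 6.16, 5.58 and 4.72 FPKM against 4.17, 4.29 and 4.15 FPKM. DNAJB4 rose by 0.61 ± 0.08 against 0 mM and 0.43 ± 0.08 against 20 mM (0.00011 and 0.0038), and DNAJB2 by 0.35 ± 0.09 and 0.40 ± 0.09 (0.0055 and 0.0064). For all 4 genes (HSPB8, HSPA2, DNAJB4, DNAJB2) both rises at 40 mM held in all 9 fits without 1 library. HSPB1 (HSP27) was not called: it had 69.8, 76.9 and 78.9 FPKM at 0 mM, 77.4, 74.4 and 73.8 FPKM at 20 mM, and 78.1, 80.4 and 110.6 FPKM at 40 mM, the last being the library that stood apart. Its log2 fold change at 40 against 0 mM was 0.22 ± 0.11 (adjusted p = 0.11), and 0.31 with a call (0.034) when replicate 1 of 40 mM was left out.

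The mitochondrial members divided. Of 8, all tested, 3 rose and 0 fell at 20 against 0 mM (16.3% and 15.2% of all tested genes). At 40 against 0 mM 2 rose and 4 fell (28.8% and 27.4% of all tested genes). At 40 against 20 mM 1 rose and 2 fell (14.3% and 15.1% of all tested genes). As shares of the 8, the rises in these last 2 comparisons were 25% and 12.5%, near those of all genes. The median log2 fold changes were -0.08, -0.09 and -0.12. The median at 20 against 0 mM was 0.06 over the members with at least 5 FPKM. HSPA9 had 73.9, 74.5 and 75.2 FPKM at 0 mM, 92.2, 97.0 and 99.2 FPKM at 20 mM, and 96.1, 97.9 and 96.9 FPKM at 40 mM. Every metformin library was above every 0 mM library, and the 2 metformin doses overlapped. HSPA9 rose by 0.36 ± 0.04 at 20 mM and 0.35 ± 0.04 at 40 mM (adjusted p = 4.8e-05 and 1.7e-05), with -0.02 ± 0.04 between the doses (0.75). It was thus the sole HSP70 of the cytosol and mitochondria called higher at 20 against 0 mM, where HSPA8, HSPA1A and HSPA1B fell.

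The genes of the HSP60 chamber were called higher at neither dose. HSPD1 had 290.2, 282 and 282 FPKM at 0 mM, 266, 260.1 and 254 FPKM at 20 mM, and 258, 256 and 225 FPKM at 40 mM. Its co-chaperonin HSPE1 had 106, 97.8 and 97.1 FPKM at 0 mM, 93.7, 87.3 and 84.7 FPKM at 20 mM, and 89.1, 91.0 and 74.8 FPKM at 40 mM. For both genes the metformin libraries lay below every 0 mM library, and the lowest value was that of replicate 3 of 40 mM. HSPD1 was not called at 20 against 0 mM (-0.13 ± 0.05, adjusted p = 0.063) and fell at 40 mM (-0.24 ± 0.05, 0.0017). HSPE1 likewise showed -0.18 ± 0.07 at 20 mM (0.079) and fell at 40 mM (-0.27 ± 0.07, 0.008). Both 20 mM values became calls when replicate 3 of 40 mM was left out of the common fit (0.0032 for HSPD1 and 0.013 for HSPE1), and both 40 mM calls held in all 9 fits.

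HSPD1 and HSPE1 are read head to head from a shared stretch of chromosome 2, and in the deposited table the genes share 135 bases on opposite strands. The RefSeq windows of HSPE1 (chr2:197500129-197500428, plus strand) and of the outer HSPD1 start (chr2:197500225-197500524, minus strand) have 204 bases in common, and neither holds a 2-unit element. The 3-unit matches of HSPD1 lie in the window of its other start (chr2:197499791-197500090), which shares 0 bases with the HSPE1 window. The HSPE1 window is shown because it spans the HSPE1 start and the outer HSPD1 start.
HSPE1 (chr2:197500129-197500428, plus strand): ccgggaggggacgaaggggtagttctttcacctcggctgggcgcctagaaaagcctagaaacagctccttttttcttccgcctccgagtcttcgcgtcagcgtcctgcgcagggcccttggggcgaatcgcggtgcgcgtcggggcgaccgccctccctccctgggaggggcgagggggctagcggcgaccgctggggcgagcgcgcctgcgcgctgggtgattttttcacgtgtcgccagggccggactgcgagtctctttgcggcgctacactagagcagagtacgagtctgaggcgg
The FPKM ratio of HSPD1 to HSPE1 was 2.74, 2.88 and 2.90 at 0 mM, 2.84, 2.98 and 3.00 at 20 mM, with 2.89, 2.81 and 3.01 at 40 mM, and all doses overlapped. The log2 difference in this ratio was 0.05 at 20 against 0 mM and 0.03 at 40 against 0 mM (exact permutation p = 0.30 and 0.50). The ratio of HSPA9 to HSPD1 was 0.347, 0.373 and 0.390 at 20 mM and 0.373, 0.382 and 0.430 at 40 mM, against 0.255, 0.264 and 0.267 at 0 mM. Every metformin library was above every 0 mM library, with log2 differences of 0.50 and 0.59 (exact permutation p = 0.10, the smallest possible, for each dose).

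**Figure D3:**
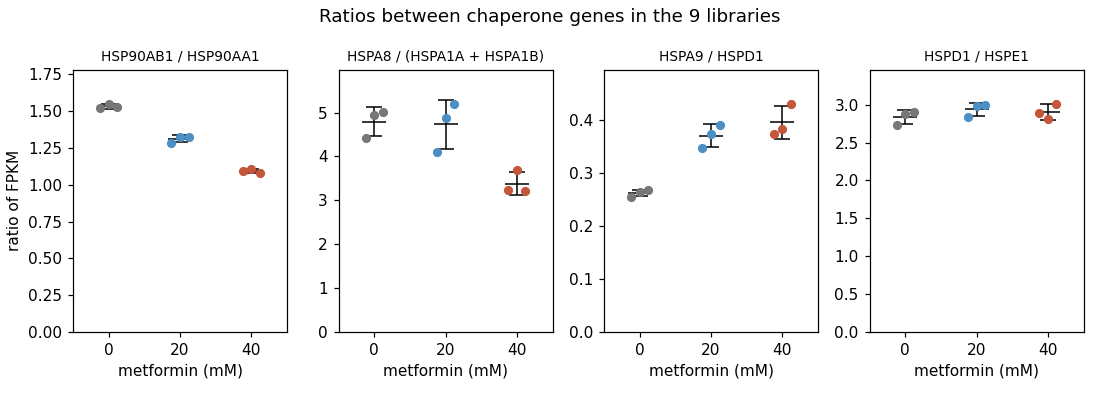
Ratios of FPKM between chaperone genes in each library at 0, 20 and 40 mM metformin. Coloured points are libraries and black marks the mean and SD of 3 libraries. The HSP90AB1 to HSP90AA1 ratio has means of 1.53, 1.31 and 1.10 with no overlap, the HSPA9 to HSPD1 ratio is higher at both metformin doses, and the HSPD1 to HSPE1 ratio overlaps at all 3.

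Among the mitochondrial J proteins, DNAJA3 (TID1), a partner of HSPA9 in the matrix, had 18.1, 18.6 and 17.6 FPKM at 0 mM, 21.1, 20.3 and 21.3 FPKM at 20 mM, and 19.7, 19.0 and 19.1 FPKM at 40 mM. It rose at 20 mM (0.20 ± 0.04, adjusted p = 0.0031), was not called at 40 mM (0.05 ± 0.04, 0.27), and fell at 40 against 20 mM (-0.15 ± 0.04, 0.016), that last call being lost in 3 of the 9 fits without 1 library. DNAJC19, a J protein of the import motor, rose at 20 mM (0.27 ± 0.06, 0.0077; at 40 mM 0.14 ± 0.06, 0.071). Its relative DNAJC15 was not called at 20 mM (-0.04 ± 0.07, 0.67) and rose at 40 mM (0.20 ± 0.07, 0.024). DNAJC11, linked to cristae, fell at 40 mM (-0.25 ± 0.04, 0.00034) and between the doses (-0.15 ± 0.04, 0.022). DNAJC30 fell at 40 mM (-0.40 ± 0.13, 0.024). The 40 mM calls of DNAJC15 and DNAJC30, the rise of DNAJC15 at 40 against 20 mM (0.24 ± 0.07, 0.019) and the fall of DNAJC11 between the doses were each lost in 3 of the 9 fits.

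The chaperonin was lower across its subunits. All 8 subunits tested fell at 40 against 0 mM (median log2 fold change -0.35, from -0.52 to -0.20), where 27.4% of all tested genes fell. At 20 against 0 mM 4 fell and 0 rose (median -0.17), where 15.2% of all tested genes fell and 16.3% rose. At 40 against 20 mM 5 fell and 0 rose (median -0.17), where 15.1% of all tested genes fell and 14.3% rose. CCT3, the subunit with the largest fall at both doses against 0 mM, had 177, 181 and 177 FPKM at 0 mM, 139, 139 and 142 FPKM at 20 mM, and 133, 134 and 114 FPKM at 40 mM. Each dose lay below the one before it in every library. CCT3 fell by 0.35 ± 0.06 at 20 mM and 0.52 ± 0.06 at 40 mM (adjusted p = 0.0011 and 1.9e-05), and by 0.17 ± 0.06 at 40 against 20 mM (0.037), a call lost in 6 of the 9 fits without 1 library. TCP1 (subunit alpha) had 94.4, 92.9 and 92.0 FPKM at 0 mM, 82.4, 84.4 and 82.9 FPKM at 20 mM, and 79.3, 75.6 and 62.4 FPKM at 40 mM, with -0.16 ± 0.07 (0.10), -0.40 ± 0.07 (0.00071) and -0.23 ± 0.07 (0.031). The TCP1 call at 40 against 20 mM was lost in 3 of the 9 fits (adjusted p up to 0.093). The TCP1 gene overlaps ACAT2 on the opposite strand.

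CCT2 had 121, 119 and 118 FPKM at 0 mM, 102, 105 and 102 FPKM at 20 mM, and 98.1, 97.5 and 78.1 FPKM at 40 mM. It fell by 0.22 ± 0.07 and 0.42 ± 0.07 against 0 mM (adjusted p = 0.04 and 0.0005), the 20 mM call being lost in 6 of the 9 fits without 1 library (adjusted p up to 0.11). CCT5 had 160.0, 159 and 154 FPKM at 0 mM, 138, 140.2 and 136 FPKM at 20 mM, and 129, 129 and 119 FPKM at 40 mM. It fell in all 3 comparisons (-0.19 ± 0.04, -0.36 ± 0.04 and -0.17 ± 0.04; adjusted p = 0.0043, 2.4e-05 and 0.0099). The other 4 subunits, CCT4, CCT6A, CCT7 and CCT8, showed -0.26, -0.20, -0.33 and -0.30 at 40 against 0 mM and -0.17, -0.12, -0.18 and -0.11 at 20 against 0 mM on the log2 scale, where CCT7 alone of them was called. The CCT7 calls at 20 against 0 mM and at 40 against 20 mM were lost in 4 and 5 of the 9 fits, and its 40 mM call held in all 9. CCT6B, the testis form of the zeta subunit, had at most 26 counts in a library and was not tested.

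In each subunit the lowest of the 9 values belonged to replicate 3 of 40 mM. The mean over the 8 subunits was 121, 120 and 102 FPKM at 40 mM, against 125, 125 and 124 FPKM at 20 mM and 143, 142 and 140 FPKM at 0 mM. Left out of the common fit, that library took the 20 mM falls to 8 of 8 subunits, and leaving out other libraries took them to as few as 2. The falls at 40 against 0 mM numbered 7 or 8 in all 9 fits, CCT4 being lost without replicate 1 or 2 of 0 mM. The falls at 40 against 20 mM numbered 1 to 6. The part of that library's depth and mitochondrial share in these values was not tested. Subunits kept an uneven level throughout: the highest over the lowest was 1.93, 1.95 and 1.92 at 0 mM, 1.93, 1.81 and 1.91 at 20 mM, with 2.08, 2.14 and 2.15 at 40 mM.

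**Figure D4:**
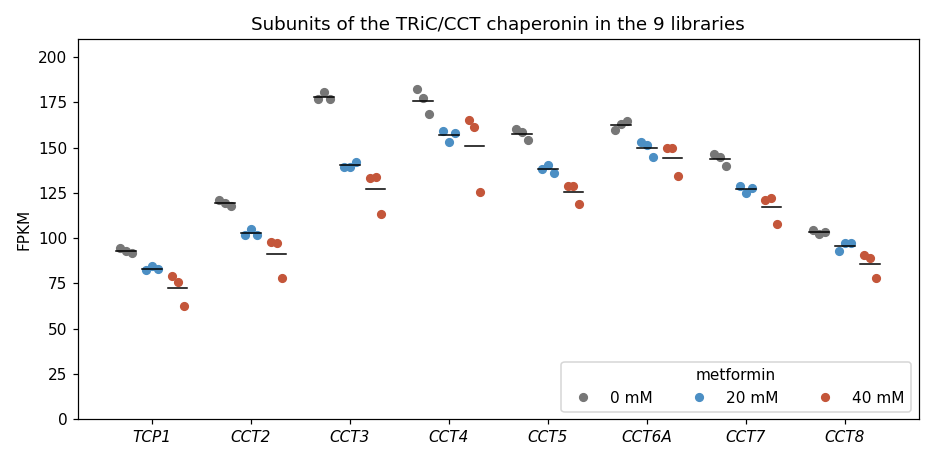
FPKM of the 8 tested TRiC/CCT subunits in each library at 0, 20 and 40 mM metformin. Points are libraries and black lines the mean of 3. Every subunit has its metformin libraries below its 0 mM libraries, and the lowest point of each subunit is replicate 3 of 40 mM.

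Of 10 ER members, 2 rose and 2 fell at 20 against 0 mM, where 16.3% of all tested genes rose and 15.2% fell, so these counts lie near the background. At 40 against 0 mM 2 rose and 5 fell (28.8% and 27.4% of all tested genes), and at 40 against 20 mM 1 rose and 3 fell (14.3% and 15.1%), with medians of -0.10, -0.10 and -0.04. HSPA13, an HSP70 relative of microsomes, had 14.0, 14.3 and 15.1 FPKM at 20 mM and 14.9, 15.5 and 12.7 FPKM at 40 mM, against 11.0, 10.8 and 11.5 FPKM at 0 mM. HSPA13 rose by 0.38 ± 0.07 and 0.33 ± 0.07 (adjusted p = 0.0019 and 0.0014). DNAJB14, an ER membrane J protein, rose by 0.22 ± 0.05 and 0.19 ± 0.05 (0.011 and 0.013), the 40 mM call being lost without replicate 1 of 0 mM (0.059). DNAJC10, a lumenal disulfide reductase, fell in all 3 comparisons (-0.18 ± 0.04, -0.37 ± 0.04 and -0.19 ± 0.04; 0.01, 4e-05 and 0.0088), each in all 9 fits.

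DNAJC18 fell by 0.73 ± 0.12 at 40 mM (adjusted p = 0.00035), to 1.06, 1.26 and 1.44 FPKM at 40 mM against 1.92, 1.98 and 2.18 FPKM at 0 mM. DNAJC16 fell at 40 mM (-0.29 ± 0.08, 0.0076) and not at 20 mM (0.02 ± 0.08, 0.86). DNAJC14 fell at 40 mM (-0.40 ± 0.09, 0.003), with 10.4, 12.6 and 13.3 FPKM at 40 mM against 15.7, 15.3 and 15.8 FPKM at 0 mM, though it overlaps another listed gene on its own strand. DNAJB11, a partner of the lumenal HSP70, showed calls of -0.15 ± 0.04 and -0.13 ± 0.04 (0.027 and 0.028), each lost in 4 of the 9 fits without 1 library. DNAJC25 rose at 40 against 20 mM (0.27 ± 0.08, 0.031), a call lost in 3 of the 9 fits, and shares its strand with a readthrough gene.

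Of 13 specialised J proteins tested, 3 rose and 3 fell at 20 against 0 mM (16.3% and 15.2% of all tested genes). At 40 against 0 mM 4 rose and 3 fell (28.8% and 27.4% of all tested genes), near the background. At 40 against 20 mM 2 rose and 1 fell (14.3% and 15.1% of all tested genes). The medians were 0.04, 0.08 and 0.03, and these counts are read as counts only. DNAJC22, a membrane J protein linked to endocytosis in the fly, had 4.74, 5.30 and 5.11 FPKM at 20 mM and 6.03, 6.45 and 5.89 FPKM at 40 mM, against 3.12, 3.57 and 3.32 FPKM at 0 mM. It alone of the 60 rose in all 3 comparisons (0.59 ± 0.07, 0.84 ± 0.07 and 0.25 ± 0.07; adjusted p = 0.00012, 2.6e-06 and 0.018), the last lost in 2 of the 9 fits without 1 library. DNAJC13 (RME-8), which sorts cargo on endosomes, had 8.54, 8.58 and 8.55 FPKM at 20 mM and 6.73, 6.25 and 6.77 FPKM at 40 mM, against 9.90, 9.99 and 10.7 FPKM at 0 mM. It fell in all 3 (-0.25 ± 0.05, -0.66 ± 0.05 and -0.41 ± 0.05; 0.0021, 1.1e-06 and 0.00021), in all 9 fits.

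The remaining calls among them were smaller. DNAJC12, a co-chaperone of aromatic amino acid hydroxylases, rose at 40 mM (0.53 ± 0.13, adjusted p = 0.0045), and its call at 20 mM (0.37 ± 0.13, 0.046) was lost in 7 of the 9 fits without 1 library. DNAJC21, needed for ribosome assembly, rose at 40 mM (0.21 ± 0.04, 0.0019), and its 20 mM call (0.13 ± 0.04, 0.044) was lost in 7. DNAJC2, a ribosome-bound J protein, rose at 40 against 0 mM (0.14 ± 0.04, 0.018) and at 40 against 20 mM (0.16 ± 0.04, 0.016), each lost in 3. DNAJC8, of the spliceosome, fell by 0.26 ± 0.06 at 40 mM (0.0037), and DNAJC17 by 0.35 ± 0.09 (0.005). Their 20 mM calls (-0.18 ± 0.06, 0.045 and -0.25 ± 0.09, 0.047) were lost in 5 and 7 of the 9 fits. DNAJC4, DNAJC5, DNAJC6, DNAJC7, DNAJC9 and DNAJC24 were called in no comparison.

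By the pattern of calls over the 3 comparisons, 6 members fell in all 3: HSP90AB1, CCT3, CCT5, CCT7, DNAJC10 and DNAJC13. For CCT3 and CCT7 this pattern did not hold in every fit without 1 library, while the other 4 kept all 3 calls in all 9 fits. Another 13 fell against 0 mM at both doses with no call between the doses, HSPA8, HSP90AA1, DNAJA1, HSPA4 and HSPH1 among them. Of these 13, DNAJB11, DNAJA2, HSPB11, DNAJB6, DNAJC8, CCT2 and DNAJC17 lost their 20 mM call in 4 to 7 of the 9 fits. DNAJB1 and HSPA1A fell at 20 against 0 mM and rose at 40 against 20 mM. Their rises were lost in 4 and 7 of the 9 fits, and the DNAJB1 fall in 2. A further 6, HSPB8, HSPA2, DNAJB2, DNAJB4, DNAJC15 and DNAJC2, rose at 40 mM against both other doses. The calls of DNAJC15 and DNAJC2 were each lost in 3 of the 9 fits. HSPA9, HSPA13, DNAJB14, DNAJC12 and DNAJC21 rose at both doses with no call between them. The 20 mM calls of DNAJC12 and DNAJC21 were each lost in 7 of the 9 fits, and the 40 mM call of DNAJB14 in 1. Another 10 members, HSF1 among them, were called in no comparison. The share of all tested genes with each pattern was not worked out, so these numbers are read as counts only.

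**Figure D5:**
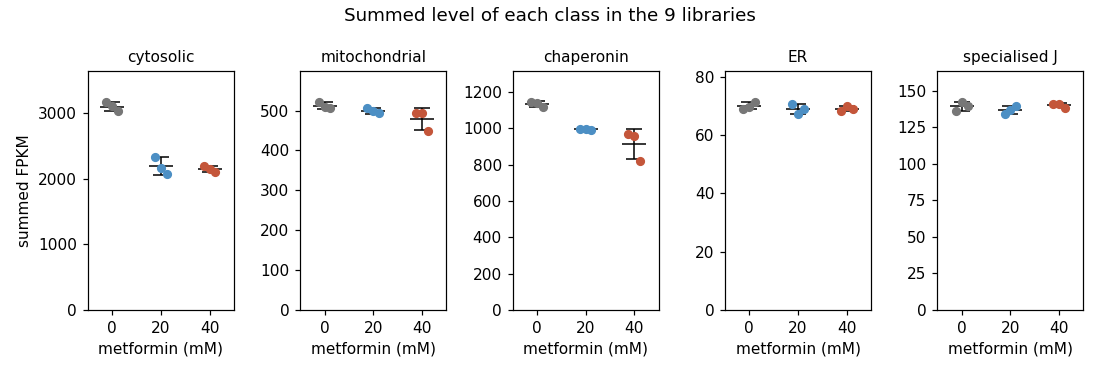
Summed FPKM of each class in each library at 0, 20 and 40 mM metformin. Coloured points are libraries, black marks the mean and SD of 3 libraries, and each panel starts at 0. Against 0 mM, cytosolic sums are 0.707 and 0.694 times as high at 20 and 40 mM and chaperonin sums 0.877 and 0.806 times. Mitochondrial sums are 0.975 and 0.935 times as high, each 40 mM library lying below every 0 mM library. ER and specialised J sums are 0.983 to 1.006 times as high.

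Summed over their members, the cytosolic and chaperonin classes had every metformin library below every 0 mM library. The mean cytosolic sum was 2190 ± 134 FPKM at 20 mM and 2150 ± 48.6 FPKM at 40 mM, against 3099 ± 72.7 FPKM at 0 mM (SD, n = 3 each). The mean chaperonin sum was 994 ± 3.30 FPKM at 20 mM and 915 ± 82.7 FPKM at 40 mM, against 1134 ± 14.4 FPKM at 0 mM. The mitochondrial sum was 507, 499 and 493 FPKM at 20 mM and 494, 495 and 448 FPKM at 40 mM, against 522, 509 and 507 FPKM at 0 mM. ER sums (67.4 to 71.4 FPKM) and specialised J sums (134 to 142 FPKM) overlapped across doses. All members together held 1.91%, 1.83% and 1.78% of library counts at 20 mM and 1.84%, 1.82% and 1.71% at 40 mM, against 2.35%, 2.28% and 2.24% at 0 mM.

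HSF1 itself had 11.8, 12.2 and 11.0 FPKM at 0 mM, 11.4, 11.7 and 12.4 FPKM at 20 mM, and 12.9, 12.3 and 13.3 FPKM at 40 mM. It was not called (0.02 ± 0.05, 0.11 ± 0.05 and 0.08 ± 0.05 on the log2 scale for 20 against 0, 40 against 0 and 40 against 20 mM; adjusted p = 0.76, 0.11 and 0.27), and transcript level does not report its activity. Of the 6 tested members with a 3-unit heat shock element in a window, shown or named above, 5 fell at 20 mM, where 15.2% of all tested genes fell, 6 fell at 40 mM (27.4% of all tested genes), and 1 fell between the doses (15.1%), with 0 rises. Of these, the DNAJB6 calls at 20 and 40 mM were lost in 5 and 7 of the 9 fits without 1 library. The exception at 20 mM was HSPD1, a mitochondrial member. The other tested bearers are cytosolic, a class in which 70% of tested members fell at 20 mM and 50% at 40 mM. Those shares count the bearers themselves, so they do not set bearers against the rest of the class. All 8 tested chaperonin subunits, with no 3-unit form in their windows, also fell at 40 mM. Falls were thus also called in members without the 3-unit form, and the part of the element in any fall was not tested. HSPA6, the bearer that was not tested, had at most 0.505 FPKM (42 to 101 counts per library). HSPA1A carries only the 2-unit form in its window and the DNAJB1 windows likewise hold no 3-unit form, which says only that these letters are not in these windows.

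Partners outside the name rule were read from a list of 51 co-chaperones, 50 of which had a row and were tested: 5 rose and 12 fell at 20 against 0 mM (16.3% and 15.2% of all tested genes), 7 rose and 17 fell at 40 against 0 mM (28.8% and 27.4% of all tested genes), and 2 rose and 6 fell at 40 against 20 mM (14.3% and 15.1% of all tested genes). The counts of the smaller groups that follow stand beside the same shares of all genes and are read as counts only. Of 15 HSP90 co-chaperones, 1 rose and 5 fell at 20 mM, and 2 rose and 7 fell at 40 mM. FKBP4, an immunophilin that links HSP90 to steroid receptors, fell by 0.27 and 0.45 on the log2 scale (adjusted p = 0.0012 and 1e-05), STIP1 (HOP), which hands clients from HSP70 to HSP90, by 0.28 and 0.33 (0.0019 and 0.00023), and PPID (cyclophilin 40) rose by 0.29 and 0.44 (0.0019 and 3.6e-05). Of 10 HSP70 partners, 1 rose and 2 fell at 20 mM and 1 rose and 3 fell at 40 mM: BAG1 fell by 0.42 and 0.61 (0.00094 and 2.4e-05), BAG2 rose by 0.29 and 0.38 (0.0055 and 0.00041), and BAG3, the partner of HSPB8, was not called (-0.11 and -0.06; 0.36 and 0.59).

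Of 9 mitochondrial partners, 2 rose and 3 fell at 20 mM and 3 rose and 4 fell at 40 mM. GRPEL2, an exchange factor of HSPA9, rose by 0.58 and 0.53 (adjusted p = 0.0004 and 0.0002), its paralogue GRPEL1 was not called (-0.06 and -0.02; 0.43 and 0.76), the matrix protease LONP1 rose by 0.79 and 0.54 (5.5e-07 and 2.3e-06), and TRAP1, the mitochondrial HSP90, fell by 0.29 and 0.66 (0.00039 and 4.4e-07). Of 11 prefoldin and chaperonin partners, 1 rose and 1 fell at 20 mM and 1 rose and 2 fell at 40 mM. PFDN2, a prefoldin subunit that delivers actin to the chaperonin, rose by 0.26 and 0.31 (0.0007 and 5e-05), and PDCL3 fell by 0.36 and 0.43 (0.0049 and 0.00077). Of 5 genes of the HSF family and its regulators, DAXX alone fell (-0.20 and -0.18; 0.0054 and 0.004).

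The 16 members under the 1 FPKM filter get values but no test. The small heat shock proteins HSPB3 and HSPB6, known from muscle, had 51, 52 and 56 and 101, 58 and 111 counts at 20 mM, and 97, 86 and 95 and 144, 148 and 176 counts at 40 mM, against 29, 10 and 15 and 81, 59 and 78 counts at 0 mM. HSPB3 thus showed no overlap between any 2 doses. DNAJB5, a class B J protein, had 141, 163 and 189 counts at 20 mM and 82, 121 and 169 counts at 40 mM, against 255, 283 and 302 counts at 0 mM. HSPA12A, an atypical HSP70, had 962 to 1393 counts and DNAJC27, a Rab-like GTPase with a J domain, 340 to 521 counts. HSPA1L had 125 to 195 counts. The others, CCT6B, DNAJA4, DNAJB13, DNAJB7, DNAJC28, DNAJC5G, HSPA12B, HSPB7 and HSPB9, had at most 110 counts in any library.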

How the data were processed

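The 9 libraries are 3 each at 0, 20 and 40 mM metformin. Gene counts and FPKM per library come from 1 table deposited by the authors, per the file headers. The submitters' processing notes name StringTie 2.1.6 without its role. Aligner, annotation, genome build and use of strand: not given in the sources used here. Members, classes and the co-chaperone list were chosen with earlier results of these data known.

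Counts were tested with edgeR 4.0.16 (R 4.3.3): quasi-likelihood, TMM scaling, all 9 libraries in 1 fit, genes averaging 1 FPKM or more (12394 genes, 98.74% of counts), adjusted p under 0.05. The SE is the log2 fold change over the square root of its F. The fit was tested on simulated data. Ratios of FPKM were compared by exact permutation. Members named with values per library were 15 listed by role and up to 4 per class with the largest called change at 40 against 0 mM and a mean of at least 5 FPKM in the higher of those doses; others are named where a count is small or a direction differs. Alternatives were other filters, scalings, DESeq2 1.42.0, limma 3.58.1 on log2 FPKM, fewer libraries, a replicate block and a threshold of 0.01; counts by class were added to these after seeing the data. No within-dose pair of libraries was a copy (chi-square per degree of freedom at least 11.8). Counting error was not set beside the spread between libraries gene by gene, and PCR copies were not marked.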

Additional observations from a re-analysis of the deposited data

How the results depend on the processing

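Settings were changed 1 at a time, but DESeq2 brings its own scaling with its model, and limma works on FPKM without TMM, so their moves cannot be laid to 1 choice. Counts of members called moved as follows. With at least 5 FPKM required, 5 members rose at 20 against 0 mM and 8 at 40 against 0 mM, of which 2 cytosolic. With no FPKM filter, 15 fell at 20 against 0 mM and 3 chaperonin members at 40 against 20 mM. With a threshold of 0.01, 5 rose and 13 fell at 20 against 0 mM, and 4 rose and 4 fell at 40 against 20 mM. Total-count scaling gave 20 rises at 40 against 0 mM, and 7 falls (1 chaperonin) at 40 against 20 mM. Limma on log2 FPKM gave 6 falls (1 chaperonin) there with either pseudocount, and the 6 libraries alone 7 (1 chaperonin), with 8 chaperonin falls at 20 against 0 mM. Leaving out 1 library gave 13 to 33 falls at 20 against 0 mM (9 to 14 cytosolic, 2 to 8 chaperonin), and 5 to 10 rises and 6 to 15 falls (1 to 6 chaperonin) at 40 against 20 mM. The fall of 8 chaperonin members at 40 against 0 mM stayed between 7 and 8 in those fits.

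Some class medians moved by more than the spread between libraries. The mitochondrial median was 0.06 with 5 FPKM, -0.04 with DNAJC4 and DNAJC28 added and -0.09 to -0.04 without 1 library at 20 against 0 mM. At 40 against 0 mM it was -0.07 with 5 FPKM, -0.04 with total counts, -0.06 with limma and -0.11 to -0.06 without 1 library; at 40 against 20 mM it was -0.08 with total counts, -0.08 and -0.09 with limma and -0.14 to -0.08. The cytosolic median at 40 against 0 mM was -0.17 without HSPA1A and HSPA1B and -0.27 to -0.15 without 1 library, and 0.05 at 40 against 20 mM with 5 FPKM. The causes were not tested.

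Uncalled log2 fold changes near 0 changed sign. At 20 against 0 mM HSPB1 was 0.01 (5 FPKM, total counts), 0.00 (limma) and -0.05 to 0.03 without 1 library, HSPA2 0.01 (total counts) and -0.09 to 0.09, HSF1 -0.02 to 0.05 and DNAJC16 -0.01 to 0.06. At 40 against 0 mM DNAJB1 was 0.02 (total counts), 0.00 (limma) and -0.08 to 0.02. At 40 against 20 mM HSP90AA1 was 0.00 (total counts) and -0.06 to 0.00, HSPA9 0.02 (total counts), 0.01 (limma) and -0.05 to 0.01, HSPA8 -0.12 to 0.04, HSPA13 -0.10 to 0.03 and DNAJB11 -0.01 to 0.05.

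Deviations of same-numbered libraries from their dose means had correlations of -0.043 to 0.159, and those of differently numbered libraries -0.181 to 0.081. These ranges overlap, and deviations from means of so few libraries cannot decide whether the numbers pair libraries across doses. With the replicate block, 10 members rose and 27 fell at 20 against 0 mM, 13 and 32 at 40 against 0 mM, and 12 and 13 at 40 against 20 mM, and HSPB1 at 20 against 0 mM was 0.00. Median-of-ratios scaling changed none of the 114 gene results checked. A left-out library leaves 2 at its dose. Tested members had mean counts of at least 425 per library, and whether depth limited the calls of the lowest was not tested.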

Other observations

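Some rows that match the member names but are pseudogenes were listed at levels above many members. HSP90AA2P averaged 9.15 FPKM at 20 mM and 9.07 FPKM at 40 mM, against 12.4 FPKM at 0 mM, and HSP90AB3P averaged 3.16 and 2.59 FPKM, against 4.07 FPKM at 0 mM. HSPD1P1 averaged 7.80 FPKM at 20 mM and 7.20 FPKM at 40 mM, against 8.68 FPKM at 0 mM. DNAJB6P1 averaged 9.31 FPKM at 20 mM and 10.5 FPKM at 40 mM, against 9.46 FPKM at 0 mM. These rows were not counted among the members, and whether their reads came from the pseudogenes or from their parent genes was not tested.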
